A study of Mus musculus with 4 samples.

Results

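The genes examined encode the respiratory chain and the ATP synthase of the inner mitochondrial membrane, in induced regulatory T (iTreg) cells cultured with or without added iron. They were taken from the count table by gene symbol: protein-coding genes whose current or older mouse symbol belongs to the Nduf, Sdh, Uqcr, Cyc1, Cox4 to Cox8 or Atp5 series, or to the mRNAs of mitochondrial DNA. The table had 47729 gene rows, and 111 of them met this rule. Of the 111, 98 are nuclear and 13 mitochondrially encoded, and 99 are rows of subunits of complexes I to V. The other 12 carry a name of the series without being subunits: 8 assembly factors of complex I (Ndufaf1 to Ndufaf8), Cox7a2l, Cox4nb, Atp5s and Atp5sl. They are described apart. Left out were 13 rows with such names that RefSeq or GENCODE M1 lists as pseudogenes, among them Gm3244 (now Ndufb4c), which RefSeq lists as protein-coding.

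Naive CD4 T cells from C57BL/6 mice, labelled as spleen, were stimulated through CD3 and CD28. The medium held IL-2 at 100 U/mL, TGF-β at 5 ng/mL, and anti-IL4 and anti-IFNγ at 5 µg/mL apiece. Both groups had this medium. The FeSO4 group also received ferrous sulfate (50 µM) for 4 days, and the Mock group received PBS for the same time. The comparison addresses how added iron alters the transcripts of iTreg cells. Each group had 2 libraries. Per the study's methods they form 2 pairs from independent experiments, but neither the methods nor the labels say whether the replicate number marks the pair. Mice in the experiments were in general 6 to 8 weeks old and of both sexes, and the sex of the mice behind each library is not given in the sources used here.

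Gene rows held from 35183187 to 40859178 reads in a library. The T and Treg cell markers Cd3e, Cd4, Foxp3, Il2ra and Ctla4 were present in every library. Foxp3 lay at 587 and 693 counts per 1000000 of the library size after TMM scaling (CPM) in Mock and at 376 and 472 CPM in FeSO4. Of 9 markers listed for B, NK and myeloid cells 8 were found by symbol; the NK markers Ncr1 and Klrb1c had 0 counts in every library, and the myeloid markers summed to 4.26 and 0.191 CPM in Mock and to 0.0292 and 0.027 CPM in FeSO4. The red cell gene Hba-a1 lay at 24.5 and 19.6 CPM in Mock and at 37.5 and 32.5 CPM in FeSO4. Markers of B cells summed to between 1.84 and 2.81 CPM and those of CD8 T cells to between 9.04 and 11 CPM. The part of these cells in the results below was not tested.

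The respiratory chain passes electrons from NADH (complex I) and succinate (complex II) through coenzyme Q, complex III and cytochrome c to oxygen (complex IV), and pumps protons as it does so. Complex V, the ATP synthase, lets the protons flow back and makes ATP. Iron sits at the core of the chain: complexes I to III hold iron-sulfur clusters, and complexes II to IV hold hemes. Most subunits are encoded in the nucleus and imported, whereas a small set is made from mitochondrial DNA, which is transcribed as long precursors that are cut into single RNAs. In bulk samples, fewer cells with a transcript and less of it per cell cannot be told apart.

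Iron-treated cells had slightly more mRNA of many respiratory chain subunits, and no member fell by the test. Of 104 members with enough counts to test, 23 were higher in FeSO4 and 0 were lower at an adjusted p under 0.05 (edgeR's quasi-likelihood test over all 13732 genes kept, with Benjamini-Hochberg adjustment). Among all genes tested, 10.6% were higher and 8.89% were lower by the same rule. When a trend with coding length was allowed in each library, 3 members stayed called. The changes were small, with log2 fold changes of the called members between 0.21 (Atp5j) and 0.44 (Usmg5). At an unadjusted p under 0.05, 42 members were higher (40.4%, against 16.9% of all genes) and 2 lower (1.92% against 15.1%), and DESeq2 and limma-voom called 23 and 24 higher and 0 lower. Under the study's threshold (unadjusted p under 0.05, fold change beyond 0.5 on the log2 scale either way) 0 members were higher and 1, Cox6b2, was lower, against 4.47% and 5.58% of all genes.

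The direction was shared by more members than passed the test. The log2 fold change was above 0 in 93 of the 104 members and below 0 in 11, with a median of 0.14, against a median of -0.00045 over all genes. Both FeSO4 libraries lay above both Mock libraries in 58 members and below them in 5, and this held for 30.1% and 29.4% of all genes tested. The calls leaned on each library. Without Mock replicate 1, 22 members were higher (21.2%, against 8.12% of all genes), and 16 of them were among the 23. Without Mock replicate 2 the count was 9 (8.65% against 7.04%, 9 among the 23), without FeSO4 replicate 1 it was 8 (7.69% against 6.33%, 5 among the 23), and without FeSO4 replicate 2 it was 11 (10.6% against 7.33%, 10 among the 23). In those 3 fits the members' share lay near that of all genes. With scaling by library size alone, 8 members were higher (7.69%, against 6.84% of all genes) and 1 lower, 77 members were above 0 and the median was 0.07, while that of all genes moved to -0.065.

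**Figure D1:**
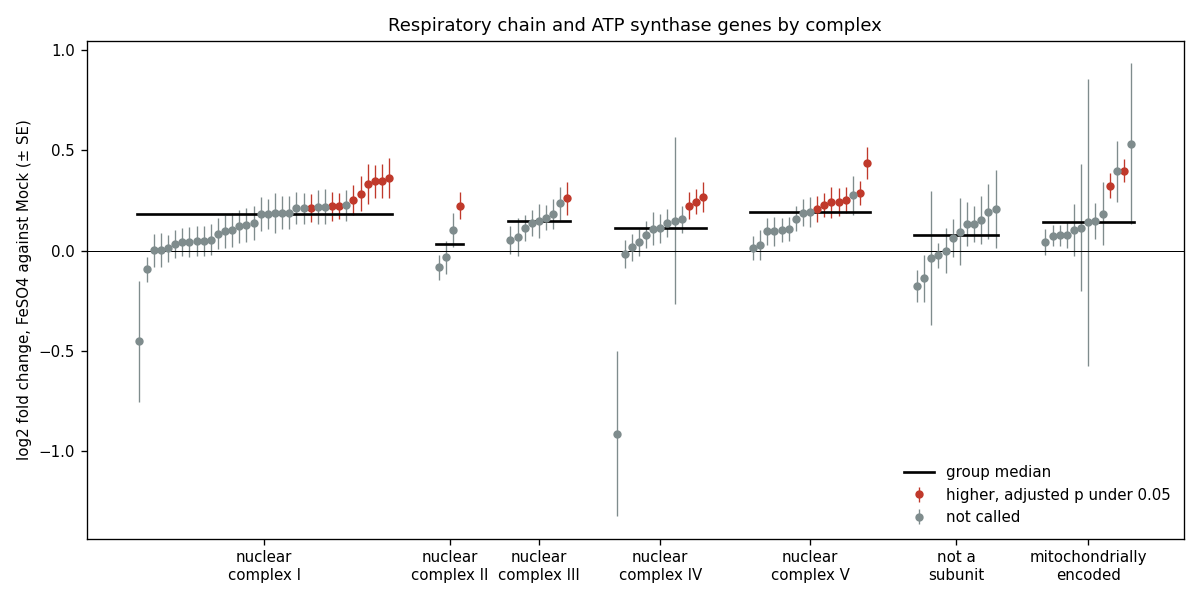
Log2 fold change of each tested member, FeSO4 against Mock, with its standard error, grouped by complex and genome; red points passed an adjusted p of 0.05 and black lines are group medians. The medians run from 0.03 for complex II to 0.19 for nuclear complex V, and the 23 called members all lie above 0.

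Many of these proteins are very small, and in these libraries calls in the higher direction were more frequent the shorter the coding sequence, also among genes that are not members. Among protein-coding genes other than the members, 22.1% of the 1056 with a coding sequence under 500 nucleotides were called higher, 16.3% of those from 500 to under 1000 nucleotides, 11.2% of those from 1000 to under 2000 and 5.54% of those of 2000 or more. The 91 nuclear members tested followed the same order, with 17 of 51 (33.3%) called higher under 500 nucleotides, 4 of 27 (14.8%) from 500 to under 1000 and 0 of the 13 that were longer. The median log2 fold change in the shortest class was 0.19 for the nuclear members and 0.15 for the other genes. Spearman's rho between log2 fold change and coding length was -0.35 across 91 nuclear members and -0.27 across 11741 other genes. Both are descriptions across genes that share the same 4 libraries.

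**Figure D2:**
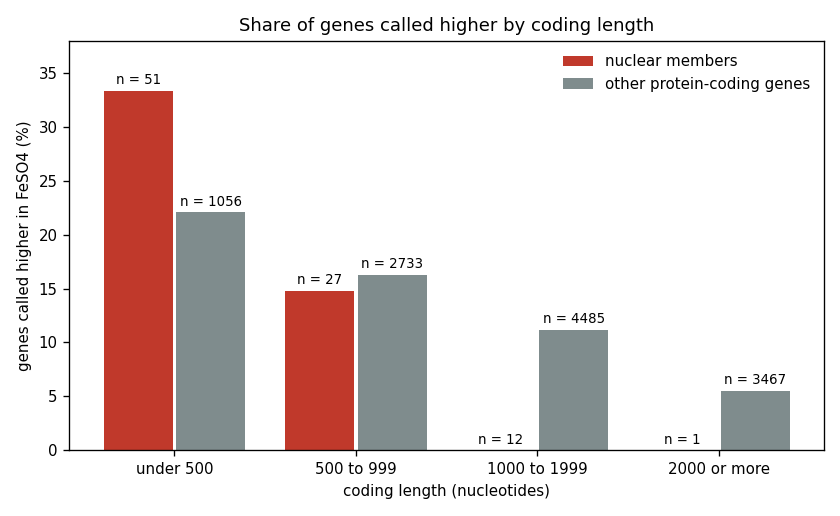
Share of genes called higher in FeSO4 (adjusted p under 0.05) by class of coding length in nucleotides, for nuclear members (red) and other protein-coding genes (grey); n is the number of genes in each class. Under 500 nucleotides 33.3% of the members and 22.1% of the other genes were called, and the members' classes of 1000 nucleotides or more hold 13 genes in all.

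A fit that allowed each library its own smooth trend with coding length, an alternative chosen after seeing the data, left few calls. Of the 23 members 3 stayed called, namely mt-Nd1, mt-Nd2 and Usmg5, against 23 when the same protein-coding genes were tested without the trend. The members' share of higher calls was then 2.88%, against 12.4% of all 11845 genes with a coding length, and their median log2 fold change 0.064, against 0.027. With the trend, 70 of the 104 members lay above 0. Cox4nb was then lower (-0.25, adjusted p = 0.0394). Such a trend takes out every difference that runs with coding length, whatever its origin.

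**Figure D3:**
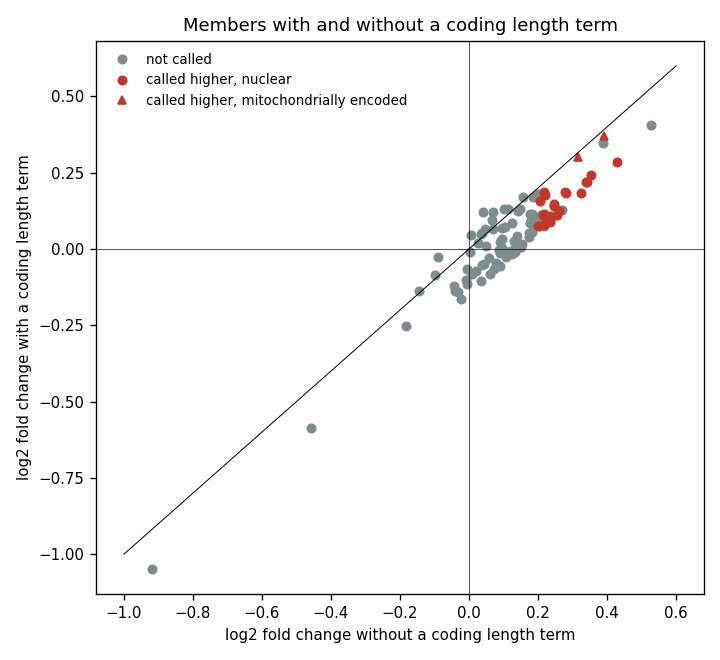
Log2 fold change of each tested member without (horizontal axis) and with (vertical axis) a trend for coding length in each library; red marks the 23 members called in the fit without it, triangles the 2 mitochondrially encoded ones, and the line is equality. All 23 called members lie below the line, mt-Nd1 and mt-Nd2 close to it.

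Complex I, the NADH dehydrogenase, is the entry of most electrons and the largest complex of the chain. Of 36 nuclear complex I subunits tested, 9 were higher (25%, against 10.6% of all genes tested) and 0 lower (against 8.89%). The median log2 fold change of the 36 was 0.18. Both FeSO4 libraries lay above both Mock libraries in 20 of the 36 and below in 2, against 30.1% and 29.4% of all genes tested. The count of 9 was 7 without Mock replicate 1, 2 without Mock replicate 2, 1 without FeSO4 replicate 1 and 4 without FeSO4 replicate 2, and 0 with the coding length trend. The 9 were Ndufc2, Ndufa5, Ndufb6, Ndufb11, Ndufa12, Ndufc1, Ndufs4, Ndufa13 and Ndufv2. When the subunits were split by role, a split made after their values were seen, 1 of the 7 core subunits that carry out catalysis was higher (Ndufv2, which holds an iron-sulfur cluster), with a median of 0.05. Of the 29 accessory subunits tested, which surround the core, 8 were higher, with a median of 0.19. The accessory subunits include most of the short proteins of the complex, so role and coding length cannot be told apart here.

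Ndufc2, an accessory subunit of the membrane arm, lay at 52.6 and 47.9 CPM in Mock replicates 1 and 2 and at 65.6 and 62.2 CPM in FeSO4. The groups did not overlap, and the log2 fold change was 0.35 ± 0.08 (SE, n = 2 each, adjusted p = 0.00891). Ndufc2 (ENSMUSG00000030647) lies on chromosome 7 at 104548513 to 104556312 (NCBIM37, plus strand). Ndufa5, an accessory subunit of the matrix arm, lay at 37 and 37.6 CPM in Mock and at 48.9 and 46.2 CPM in FeSO4, which is 0.35 ± 0.08 on the log2 scale (SE, adjusted p = 0.00944). Its Mock libraries nearly coincided, and both FeSO4 libraries lay clearly above them. It is encoded on chromosome 6 at 24468666 to 24478013 (minus strand). Ndufa5 lost its call without FeSO4 replicate 1, and Ndufc2 without that library or Mock replicate 2.

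Ndufb6 lay at 38.2 and 31.8 CPM in Mock and at 47 and 42.8 CPM in FeSO4, the largest log2 fold change among the nuclear complex I subunits at 0.36 ± 0.10 (SE, adjusted p = 0.02). The 2 Mock libraries differed from each other by more than the nearer Mock and FeSO4 libraries did. Ndufb6 lies on chromosome 4 at 40217624 to 40226454 (minus strand), and 39% of its exon bases overlap 2010003O02Rik on the opposite strand, so its counts are uncertain. Its call was lost without Mock replicate 2 and without FeSO4 replicate 1. Ndufb11 lay at 125 and 124 CPM in Mock and at 142 and 147 CPM in FeSO4, which is 0.22 ± 0.07 on the log2 scale (SE, adjusted p = 0.0261). It is encoded on the X chromosome at 20192452 to 20194745 (minus strand), and it was not called without each of the 4 libraries in turn. Ndufb2 had the lowest fold change of the complex, from 2.54 and 3.2 CPM in Mock to 2.42 and 1.78 CPM in FeSO4 (-0.45 ± 0.30, SE, adjusted p = 0.329). Per kilobase of exon it was also the lowest tested member of the nuclear genome, at 0.442 CPM, against a median of 49.3 over the complex.

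Complex II, succinate dehydrogenase, joins the chain to the citric acid cycle and holds iron-sulfur clusters in Sdhb. Sdhb alone of its 4 subunits was higher in FeSO4 (25%, against 10.6% of all genes tested). It lay at 158 and 144 CPM in Mock and at 179 and 173 CPM in FeSO4, without overlap, a log2 fold change of 0.22 ± 0.07 (SE, n = 2 each, adjusted p = 0.0326). The call was lost without Mock replicate 2 and without either FeSO4 library. Sdhb (ENSMUSG00000009863) lies on chromosome 4 at 140517118 to 140535108 (NCBIM37, plus strand).

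The flavoprotein Sdha, its partner in the catalytic part, lay at 314 and 313 CPM in Mock and at 302 and 289 CPM in FeSO4. Both FeSO4 libraries were below both Mock libraries, but the difference did not pass the test (-0.08 ± 0.06, SE, adjusted p = 0.371). The membrane anchors overlapped between groups. Sdhc lay at 93.6 and 81.9 CPM in Mock and at 99.7 and 88.6 CPM in FeSO4 (0.10 ± 0.08, SE, adjusted p = 0.439). Sdhd lay at 130 and 122 CPM in Mock and at 134 and 113 CPM in FeSO4 (-0.03 ± 0.08, SE, adjusted p = 0.819). The 2 FeSO4 libraries of Sdhd lay on both sides of the Mock libraries, and the median of the complex, 0.03, turned negative with library size alone (-0.031) and with the coding length trend (-0.011).

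Complex III, the cytochrome bc1 complex, hands electrons from coenzyme Q to cytochrome c. All 9 nuclear subunits had a log2 fold change above 0 (median 0.15). Both FeSO4 libraries lay above both Mock libraries in 6, against 30.1% of all genes tested. Uqcr11 alone passed the test, a share of 11.1% that lay near the 10.6% of all genes. Uqcr11, a small accessory subunit, lay at 55.3 and 50.9 CPM in Mock and at 65.2 and 62.2 CPM in FeSO4, a log2 fold change of 0.26 ± 0.08 (SE, n = 2 each, adjusted p = 0.0359). The lower FeSO4 library was well above the higher Mock library. Uqcr11 lies on chromosome 10 at 79865742 to 79869575 (NCBIM37, minus strand). Complex III had 3 called subunits without Mock replicate 1 and 0 without each other library. Uqcrc1, a core subunit, changed least, from 262 and 238 CPM in Mock to 271 and 247 CPM in FeSO4 (0.05 ± 0.07, SE, adjusted p = 0.658), with overlapping libraries. The heme protein Cyc1 also overlapped, at 148 and 126 CPM in Mock and at 163 and 142 CPM in FeSO4.

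Complex IV, cytochrome c oxidase, reduces oxygen with hemes and copper. Of 13 nuclear subunits tested 3 were higher (23.1%, against 10.6% of all genes tested) and 0 lower (against 8.89%). The median log2 fold change was 0.11 and changed sign under the coding length trend (-0.008). The 3 are small membrane subunits around the catalytic core. Cox6c lay at 169 and 175 CPM in Mock and at 203 and 205 CPM in FeSO4, a log2 fold change of 0.24 ± 0.06 (SE, n = 2 each, adjusted p = 0.0128). The gap between the groups was several times that within either of them. Cox6c is encoded on chromosome 15 at 35855641 to 35868001 (NCBIM37, minus strand). Cox7a2 lay at 104 and 93.1 CPM in Mock and at 119 and 118 CPM in FeSO4 (0.27 ± 0.07, SE, adjusted p = 0.0179), and Cox7b at 116 and 113 CPM in Mock and at 135 and 133 CPM in FeSO4 (0.22 ± 0.07, SE, adjusted p = 0.0272). Neither gene overlapped between groups. Without FeSO4 replicate 1 or FeSO4 replicate 2 0 nuclear subunits of complex IV were called, and 1 was without Mock replicate 2. Cox7a2 lies on chromosome 9 at 79603048 to 79607660 (minus strand) and Cox7b on the X chromosome at 103211039 to 103217789 (plus strand).

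Several subunits of complex IV exist as a common form and a form of muscle, testis or low oxygen. In iTreg cells the common forms made up nearly all of the counts. Cox4i1, the common subunit IV, lay at 343 and 307 CPM in Mock and at 338 and 320 CPM in FeSO4 (0.02 ± 0.07, SE, adjusted p = 0.908). Its partner Cox4i2, known from lung and low oxygen, had 0 counts in both Mock libraries and 6 and 7 counts in the FeSO4 libraries, too few to be tested. A count of 0 allows up to 3 counts, or 0.0739 and 0.0717 CPM in the Mock libraries, and the FeSO4 counts came to 0.175 and 0.189 CPM.

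The other pairs showed the same preference for the common form in both groups. Cox6a1 lay at 347 and 299 CPM in Mock and at 361 and 336 CPM in FeSO4 (0.11 ± 0.07, SE, adjusted p = 0.325), and Cox6a2, the form of heart and muscle, had 0 counts throughout. Cox6b1 lay at 120 and 120 CPM in Mock and at 128 and 126 CPM in FeSO4 (0.08 ± 0.07, SE, adjusted p = 0.442). Its testis partner Cox6b2 had the lowest log2 fold change of all members, from 2.86 and 1.63 CPM in Mock to 1.58 and 0.81 CPM in FeSO4 (-0.91 ± 0.41, SE, adjusted p = 0.139). Mock replicate 2 and FeSO4 replicate 1 of Cox6b2 were almost equal.

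Cox7a1, the muscle partner of Cox7a2, lay at 1.01 and 1.2 CPM in Mock and at 1.34 and 1.11 CPM in FeSO4 (0.15 ± 0.42, SE, adjusted p = 0.849). Cox8a lay at 289 and 251 CPM in Mock and at 268 and 265 CPM in FeSO4 (-0.02 ± 0.07, SE, adjusted p = 0.899), while Cox7b2 and Cox8b had 1 count in Mock replicate 1 and 0 elsewhere. Ndufa4, once counted with complex I and now with complex IV, lay at 151 and 144 CPM in Mock and at 157 and 147 CPM in FeSO4 (0.04 ± 0.07, SE, adjusted p = 0.729). Its low-oxygen partner Ndufa4l2 had at most 1 count in a library. The libraries of Cox4i1, Cox6a1, Cox7a1, Cox8a and Ndufa4 overlapped between groups. Of the 7 members not tested, 6 belong to complex IV (Cox4i2, Cox6a2, Cox7b2, Cox8b, Cox8c and Ndufa4l2), and the other is a second identifier for Ndufb8 with 0 counts.

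Complex V, the ATP synthase, had the largest share of called members in the edgeR test that called 23 members. Of its 17 nuclear subunits 7 were higher (41.2%, against 10.6% of all genes tested). All 17 were above 0 with a median log2 fold change of 0.19. Both FeSO4 libraries lay above both Mock libraries in 14 of them, against 30.1% of all genes tested. With the coding length trend the share was 5.88%, against 28.6% for mitochondrially encoded complex I and 12.4% of all genes. The count of 7 was 6 without Mock replicate 1, 4 without Mock replicate 2, 2 without FeSO4 replicate 1 and 5 without FeSO4 replicate 2, and 1 with the coding length trend. By a split made after the values were seen, the 7 all belong to the 12 subunits of the stalk and the membrane part Fo (median 0.23). Of the 5 subunits of the catalytic head F1 0 were called at an adjusted p under 0.05, 0 had an unadjusted p under 0.05, DESeq2 and limma-voom called 0, and the median was 0.10. Coding lengths of the stalk and Fo subunits run from 174 to 768 nucleotides and those of F1 from 156 (Atp5e, 0.10, not called) to 1659.

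Usmg5 (now Atp5md), a very small subunit tied to the joining of ATP synthases into dimers, rose most among all nuclear members. It lay at 58.9 and 57.3 CPM in Mock and at 82.2 and 74.9 CPM in FeSO4, a log2 fold change of 0.44 ± 0.08 (SE, n = 2 each, adjusted p = 0.00151). The groups were far apart, and the call held in all 16 alternative fits at an adjusted p under 0.05. The log2 fold change was 0.28 under the coding length trend. Usmg5 (ENSMUSG00000071528) lies on chromosome 19 at 47157961 to 47165115 (NCBIM37, minus strand). Atp5h, a subunit of the peripheral stalk, lay at 185 CPM in both Mock libraries and at 224 and 227 CPM in FeSO4 (0.29 ± 0.06, SE, adjusted p = 0.00427). The spread within its groups was small beside the difference. Atp5h lies on chromosome 11 at 115277003 to 115281276 (minus strand), but 89.6% of its transcript has a copy of at least 99% identity elsewhere in the genome, and reads of more than 1 place were not counted.

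Atp5f1 (now Atp5pb), also of the peripheral stalk, lay at 283 and 287 CPM in Mock and at 334 and 333 CPM in FeSO4 (0.23 ± 0.06, SE, adjusted p = 0.0148). Its locus is chromosome 3, 105745616 to 105763017 (minus strand), and its call was lost without either FeSO4 library. Atp5g3 is 1 of 3 genes for the same proton-carrying c subunit, and lay at 242 and 233 CPM in Mock and at 292 and 273 CPM in FeSO4 (0.25 ± 0.06, SE, adjusted p = 0.012). Its call was lost without FeSO4 replicate 1. Its companions Atp5g1 (0.19 ± 0.08, SE, adjusted p = 0.0897) and Atp5g2 (0.10 ± 0.07, SE, adjusted p = 0.389) did not pass. The 3 genes summed to 605 and 565 CPM in Mock and to 692 and 631 CPM in FeSO4, so their sum was also higher in both FeSO4 libraries. Identical copies elsewhere in NCBIM37 cover the whole transcript of Atp5g2, yet it was counted at 258 and 233 CPM in Mock. How many of its reads were lost was not tested, so the division among the 3 is uncertain. Atp5a1, the catalytic head's α subunit, changed least, from 927 and 898 CPM in Mock to 961 and 880 CPM in FeSO4 (0.01 ± 0.06, SE, adjusted p = 0.918), with overlapping libraries.

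**Figure D4:**
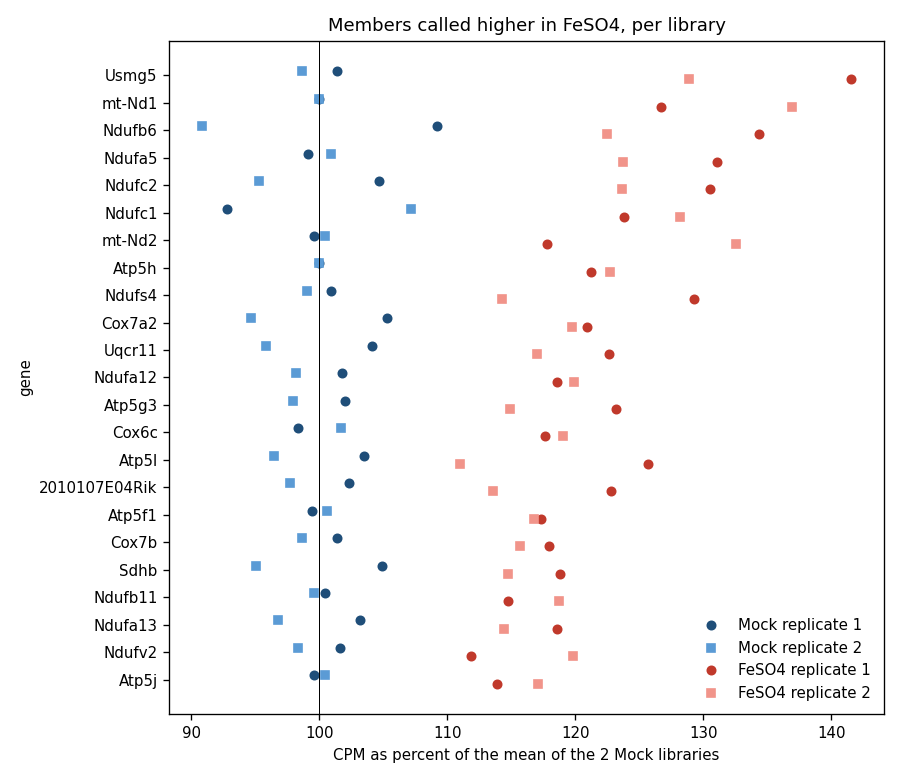
CPM of the 23 members called higher in FeSO4, each library as percent of the mean of the 2 Mock libraries of that gene; circles are replicate 1, squares replicate 2, blue Mock and red FeSO4. In every row both red points lie to the right of both blue points, which the test that chose the genes favours, and Usmg5 reaches farthest to the right.

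The 13 mRNAs of mitochondrial DNA made up 1.79 and 1.71% of gene counts in Mock and 1.74 and 1.9% in FeSO4. These shares overlapped between groups, whereas the same sums on the TMM-scaled CPM used elsewhere did not, at 17497 and 16716 CPM in Mock and at 17885 and 19390 CPM in FeSO4. The half-width of the 95% Wilson interval, which covers counting error only, was at most 0.00436 percentage points. The 98 nuclear members together made up 1.23 and 1.17% of counts in Mock and 1.26 and 1.21% in FeSO4, which overlapped as well. Their scaled sums did not overlap, at 12052 and 11409 CPM in Mock and at 12984 and 12383 CPM in FeSO4. Each of the 13 mitochondrial mRNAs had a log2 fold change above 0, with a median of 0.14, and 2 passed the test (15.4%, against 10.6% of all genes). This median was 0.060 without FeSO4 replicate 2 and 0.31 without Mock replicate 2.

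Those 2, mt-Nd1 and mt-Nd2, encode subunits of the proton-pumping arm of complex I and lie next to the ribosomal RNA genes. mt-Nd1 lay at 1549 and 1549 CPM in Mock and at 1962 and 2121 CPM in FeSO4, a log2 fold change of 0.40 ± 0.06 (SE, n = 2 each, adjusted p = 0.000178). The Mock libraries were nearly equal and both FeSO4 libraries lay far above them. mt-Nd2 lay at 1062 and 1071 CPM in Mock and at 1256 and 1414 CPM in FeSO4 (0.32 ± 0.06, SE, adjusted p = 0.00212). Both genes were called in all 16 alternative fits at an adjusted p under 0.05, with the coding length trend and without each library. mt-Nd1 occupies bases 2751 to 3707 and mt-Nd2 bases 3914 to 4951 of the mitochondrial genome (NCBIM37, plus strand).

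From the ribosomal RNAs to mt-Co1, the difference became smaller along the mitochondrial genome, while genes beyond mt-Co1 followed no such order. The 12S and 16S ribosomal RNAs, which precede mt-Nd1 and are not among the 111 genes, had log2 fold changes of 0.61 ± 0.07 (mt-Rnr1, SE, adjusted p = 3.7e-05) and 0.57 ± 0.06 (mt-Rnr2, SE, adjusted p = 1.65e-05). The values then went to 0.40 for mt-Nd1, 0.32 for mt-Nd2 and 0.07 ± 0.05 for mt-Co1 (SE, adjusted p = 0.35). mt-Co1, a catalytic subunit of complex IV, was the most abundant member per kilobase and lay at 8746 and 8170 CPM in Mock and at 8577 and 9237 CPM in FeSO4, with overlapping groups. Near the end of the heavy strand transcript, mt-Cytb, the heme-bearing subunit of complex III, lay at 3178 and 3006 CPM in Mock and at 3217 and 3303 CPM in FeSO4 (0.08 ± 0.05, SE, adjusted p = 0.339).

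The ratio of mt-Nd1 to mt-Cytb counts does not depend on how libraries are scaled. It was 0.487 and 0.515 in Mock and 0.61 and 0.642 in FeSO4, without overlap. The ratio of mt-Nd2 to mt-Cytb was 0.334 and 0.356 in Mock and 0.39 and 0.428 in FeSO4, also without overlap. The ratio of mt-Co1 to mt-Cytb overlapped, at 2.75 and 2.72 in Mock and at 2.67 and 2.8 in FeSO4. With 2 libraries against 2, the smallest p of a two-sided exact permutation test is 0.333, which the ratios of mt-Nd1 and mt-Nd2 reached, so this test cannot pass 0.05 here.

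The other subunits of complex I in mitochondrial DNA did not pass the test. mt-Nd4 lay at 974 and 906 CPM in Mock and at 918 and 1019 CPM in FeSO4 (0.04 ± 0.06, SE, adjusted p = 0.692). mt-Nd5 lay at 1747 and 1751 CPM in Mock and at 1704 and 1985 CPM in FeSO4 (0.08 ± 0.07, SE, adjusted p = 0.459). In both genes FeSO4 replicate 1 lay among or below the Mock libraries and FeSO4 replicate 2 above them. mt-Nd6, the single mRNA of the other strand, lay at 208 and 225 CPM in Mock and at 210 and 269 CPM in FeSO4 (0.15 ± 0.09, SE, adjusted p = 0.288). Whether reads were counted by strand is not given in the sources used here, so mt-Nd6 may include reads of the opposite strand.

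The remaining 6 mitochondrial mRNAs were counted at a small part of their neighbors' level. mt-Co2 lay at 14 and 17 CPM in Mock and at 15.8 and 17.5 CPM in FeSO4 (0.10 ± 0.13, SE, adjusted p = 0.635). mt-Atp6 lay at 7.94 and 9.3 CPM in Mock and at 9.81 and 9.78 CPM in FeSO4 (0.18 ± 0.16, SE, adjusted p = 0.462). The libraries of mt-Co2 overlapped, and those of mt-Atp6 did not. mt-Co3 lay at 8.01 and 8.47 CPM in Mock and at 11 and 10.7 CPM in FeSO4, and missed the threshold (0.40 ± 0.15, SE, adjusted p = 0.081). Its FeSO4 libraries were both above its Mock libraries.

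The 3 shortest of them rested on the fewest reads. mt-Nd3 lay at 1.23 and 0.885 CPM in Mock and at 1.61 and 1.46 CPM in FeSO4 (0.53 ± 0.40, SE, adjusted p = 0.397). mt-Nd4l lay at 1.73 and 2.32 CPM in Mock and at 2.28 and 2.11 CPM in FeSO4 (0.11 ± 0.32, SE, adjusted p = 0.848). mt-Atp8 had 8 and 14 counts in Mock and 9 and 12 counts in FeSO4 (0.14 ± 0.72, SE, adjusted p = 0.924). At these counts, differences of the size seen in mt-Nd1 were not detectable.

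These 6 genes have copies in the nuclear genome, and reads of more than 1 place were not counted. A stretch on chromosome 1 (NCBIM37, minus strand) is identical to mt-Co2, mt-Atp8, mt-Atp6, mt-Co3 and mt-Nd4l over their whole length, to all but the first bases of mt-Nd3 (99.1%), and to 63.6% of mt-Nd4. No copy of at least 95% identity was found for mt-Nd1, mt-Nd6 or mt-Cytb, and the longest copies of mt-Co1, mt-Nd2 and mt-Nd5 had 97.6, 96.7 and 95.2% identity. A shorter copy of at least 99% identity covers 31.3% of mt-Co1, so part of its reads can also be lost. The opening bases of mt-Co3 and mt-Co1, with those of their copies, show a stretch that is identical to its copy and a stretch that is not. Capitals mark bases that differ, and positions count from the first base shown.
mt-Co3, chrM:8607-8666 (plus strand): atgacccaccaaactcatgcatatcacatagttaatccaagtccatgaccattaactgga
copy, chr1:24620751-24620810 (minus strand): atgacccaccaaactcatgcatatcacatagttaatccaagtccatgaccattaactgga
mt-Co1, chrM:5328-5387 (plus strand): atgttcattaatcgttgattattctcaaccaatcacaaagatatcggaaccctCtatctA
copy, chr2:22445108-22445167 (minus strand): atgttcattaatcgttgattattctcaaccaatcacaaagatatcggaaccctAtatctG
The mt-Co3 pair has 0 differences in 60 bases, and the mt-Co1 pair has 2, C54A and A60G. A read of the stretch shown for mt-Co3 has 2 places in this genome. mt-Co3 was counted at 12.2 CPM per kilobase, against 5620 for mt-Co1. Atp5g2, whose whole transcript has a copy of at least 99% identity, was not counted at such a low level. How many reads each gene lost to its copies was not tested.

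**Figure D5:**
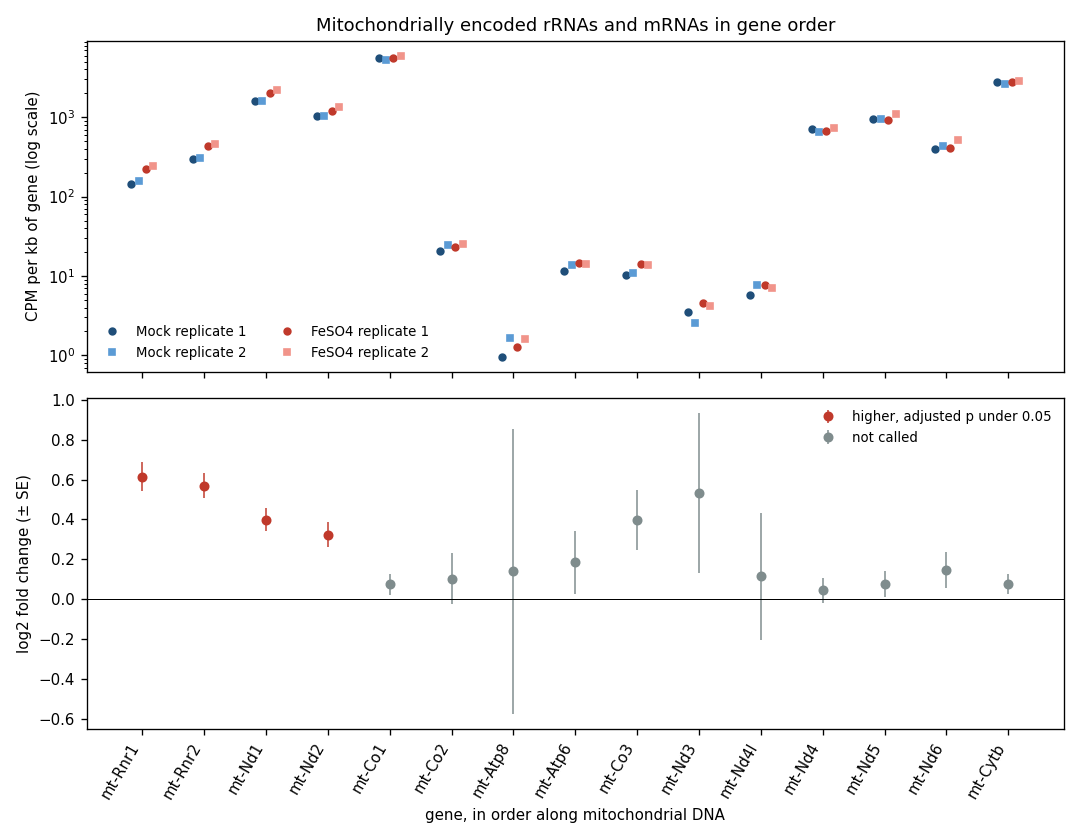
Upper panel, CPM per kilobase (log scale) of the ribosomal RNAs and mRNAs of mitochondrial DNA in each library, in gene order; lower panel, log2 fold change of FeSO4 against Mock with its standard error, red where the adjusted p was under 0.05. The fold changes go from 0.61 at mt-Rnr1 to 0.07 at mt-Co1, and the genes from mt-Co2 to mt-Nd4l, which have an identical nuclear copy, lie far below the others in the upper panel.

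Of the 12 genes of the series that are not subunits, 0 were called by edgeR at an adjusted p under 0.05 and 1, Cox4nb, had an unadjusted p under 0.05; DESeq2 and limma-voom also called 0. The median log2 fold change was 0.08, with 7 above 0 and 5 below, and it was -0.023 with the coding length trend, under which Cox4nb was called lower. Ndufaf6 (2310030N02Rik in the table), an assembly factor of complex I, had the highest value, from 5.45 and 5.81 CPM in Mock to 7.01 and 6 CPM in FeSO4 (0.21 ± 0.19, SE, adjusted p = 0.499). Cox4nb, now called Emc8 and part of a membrane protein complex of the endoplasmic reticulum, had the lowest, from 56 and 53.8 CPM in Mock to 49 and 48.2 CPM in FeSO4 (-0.18 ± 0.08, SE, adjusted p = 0.148). Cox4nb lies head to head with Cox4i1 on chromosome 8 (123177814 to 123192012, minus strand, and 123192190 to 123198109, plus strand), and the log2 fold change of Cox4i1 was 0.02. Cox7a2l, which joins complexes III and IV into supercomplexes, lay at 286 and 278 CPM in Mock and at 270 and 285 CPM in FeSO4.

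Genes around the chain were counted in 6 lists of 102 genes by role, chosen with earlier results of these data known. Among carriers that pass ATP, phosphate and protons through the mitochondrial membranes, 5 of 7 tested were higher and 0 lower. The share higher was 71.4%, against 10.6% of all genes tested, and the median log2 fold change was 0.26. The 5 were the ADP/ATP carriers Slc25a5 and Slc25a4 and the outer membrane channels Vdac1, Vdac3 and Vdac2. Slc25a5 lay at 614 and 595 CPM in Mock and at 744 and 726 CPM in FeSO4 (0.28 ± 0.06, SE, n = 2 each, adjusted p = 0.00326), and its groups did not overlap. The count of 5 was 4 with the coding length trend, 4 without Mock replicate 2, 2 without FeSO4 replicate 1 and 3 without FeSO4 replicate 2. The values were 0.27 for Vdac1, 0.28 for Vdac3, 0.26 for Slc25a4 and 0.20 for Vdac2. The phosphate carrier Slc25a3 (-0.01) and the uncoupling protein Ucp2 (0.07) did not pass.

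Among 14 genes of electron carriers and coenzyme Q synthesis, 1 was higher and 1 lower. The share higher was 7.14%, against 10.6% of all genes tested, of which 8.89% were lower. Cycs, cytochrome c itself, lay at 79.1 and 77.3 CPM in Mock and at 103 and 92.5 CPM in FeSO4 (0.32 ± 0.08, SE, adjusted p = 0.00816). Coq8a, needed for coenzyme Q synthesis, lay at 15 and 14.9 CPM in Mock and at 9.11 and 12.4 CPM in FeSO4 (-0.47 ± 0.15, SE, adjusted p = 0.0405). Neither gene overlapped between groups. Cycs was not called without FeSO4 replicate 1 or with the coding length trend (0.19), and Coq8a was not called without each library but FeSO4 replicate 2, nor by DESeq2. Against 10.6% higher and 8.89% lower among all genes, 0 of 7 genes for other enzymes that feed coenzyme Q were higher and 1 was lower. It was Sqor, sulfide quinone oxidoreductase, at 7.3 and 6.86 CPM in Mock and at 4.35 and 3.51 CPM in FeSO4 (-0.85 ± 0.21, SE, adjusted p = 0.00903), and it was called without each library in turn. No member of that list was higher at an unadjusted p under 0.05 or by DESeq2 or limma-voom.

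Of 40 other assembly factors tested, 2 were higher (5%, against 10.6% of all genes tested) and 0 lower (against 8.89%). The median log2 fold change of the 40 was 0.02, and it was negative with upper quartile scaling (-0.00223) and library size alone (-0.0485). The 2 were Higd1a, a small factor of complex IV (0.30 ± 0.08, SE, adjusted p = 0.0179), and Sco1, which delivers copper to complex IV (0.40 ± 0.13, SE, adjusted p = 0.0394). DESeq2 called 1 of them, and neither was called without Mock replicate 2 or with the coding length trend. Of 17 genes for copying and transcribing mitochondrial DNA and for RNA stability, 0 were higher and 1 lower. Among all genes tested the shares were 10.6% and 8.89%. Polrmt, the RNA polymerase of mitochondria, lay at 56.1 and 49.2 CPM in Mock and at 43.6 and 39.3 CPM in FeSO4 (-0.34 ± 0.09, SE, adjusted p = 0.0167), without overlap. It was not called without Mock replicate 1, without FeSO4 replicate 2 or with the coding length trend (-0.18). Its partner Tfam, which packs mitochondrial DNA and starts its transcription, overlapped, at 58.4 and 54.6 CPM in Mock and at 55.4 and 57.5 CPM in FeSO4. Of 10 nuclear regulators tested, 0 were called by edgeR at an adjusted p under 0.05 and 3 had an unadjusted p under 0.05, while DESeq2 and limma-voom each called 1 lower.

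Promoter sequences were found for 79 of the 98 nuclear members (84 windows of 250 bases before to 50 bases after the start, RefSeq, GRCm38.p6) and searched on both strands for the letters of factors known from respiratory genes. The NRF-1 letters GCATGCGC stood in 14.3% of member windows, against 2.71% of all 32851 windows of that length. This set of letters can overlap its own reverse complement. The YY1 letters AAGATGGC stood in 15.5% against 2.75%, and the ETS letters CCGGAAGT in 5.95% against 3.89%. The letters AAGGTCA of ERR and other nuclear receptors stood in 9.52% against 4.72%, and the HIF letters ACGTG in 26.2% against 19.6%.

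Within the members, windows of called and of other genes were alike in the NRF-1 letters. They stood in 3 of 21 windows of members called higher (14.3%) and in 9 of 61 windows of members tested and not called (14.8%), and the YY1 letters in 19% and 14.8%. The HIF letters stood in 19% and 27.9%, and the ERR letters in 9.52% and 9.84%. The ETS letters stood in 2 of 21 and 3 of 61 windows (9.52% and 4.92%). The stretches from 100 bases before to 10 bases after the start show 4 called members and, for contrast, 2 ATP synthase genes with the same NRF-1 letters that were not called, with the letters of NRF-1, ETS and YY1 in capitals. A match is a description of letters and not of binding.
Sdhb (higher), chr4:140961171-140961280 (plus strand): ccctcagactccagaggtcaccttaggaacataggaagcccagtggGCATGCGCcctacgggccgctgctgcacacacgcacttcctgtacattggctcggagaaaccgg
Uqcr11 (higher), chr10:80406812-80406921 (minus strand): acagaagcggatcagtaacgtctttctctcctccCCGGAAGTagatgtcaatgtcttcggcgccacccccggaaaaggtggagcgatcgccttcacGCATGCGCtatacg
Atp5h (higher), chr11:115419910-115420019 (minus strand): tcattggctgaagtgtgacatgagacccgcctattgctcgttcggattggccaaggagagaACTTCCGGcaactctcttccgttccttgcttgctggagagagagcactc
Atp5j (higher), chr16:84834967-84835076 (minus strand): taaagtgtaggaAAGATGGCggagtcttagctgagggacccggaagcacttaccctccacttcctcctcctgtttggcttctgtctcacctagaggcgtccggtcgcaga
Atp5g2 (not called), chr15:102671038-102671147 (minus strand): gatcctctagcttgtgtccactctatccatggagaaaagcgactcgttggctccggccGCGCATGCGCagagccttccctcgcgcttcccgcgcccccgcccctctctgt
Atp5k (not called), chr5:108434390-108434499 (minus strand): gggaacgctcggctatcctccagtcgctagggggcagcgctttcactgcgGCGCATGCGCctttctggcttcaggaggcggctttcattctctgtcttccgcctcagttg
Sdhb and Uqcr11 carry the NRF-1 letters in 1 orientation, beginning 54 and 4 bases before the start, and Atp5g2 and Atp5k carry both orientations in overlap, beginning 42 and 50 bases before it. Atp5h holds the ETS letters and Atp5j the YY1 letters.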

How the data were processed

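The deposited table held raw read counts per Ensembl gene from 4 RNA-seq libraries of iTreg cells, not normalized by the authors. According to the study's methods, reads were aligned to mm9 with STAR and tested with DESeq; the submitters' processing notes name mm10, Trim Galore 0.6.7, STAR 2.7.9a and featureCounts. This conflict could not be settled, so positions (GENCODE M1, NCBIM37) are for orientation. Reads not assigned to a gene were left out: 4.36 to 6.03% of reads had no feature, 3.78 to 3.91% were ambiguous, 0.802 to 0.988% had low alignment quality, 1.8 to 2.31% were unaligned and 4.27 to 4.62% aligned to more than 1 place. Symbols were found for 32799 of 47729 IDs.

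Counts were analysed in R 4.3.3 with edgeR 4.0.16: filterByExpr by group (13732 genes), TMM scaling and the quasi-likelihood F test with Benjamini-Hochberg adjustment. CPM use TMM-scaled library sizes of the genes kept, and an SE is the log2 fold change divided by the square root of F. The common biological coefficient of variation was 8.24%. A count of 3 equals 0.0717 to 0.0876 CPM. Alternatives were DESeq2 1.42.0, limma-voom (limma 3.58.1), other ways of scaling and filtering, a block for the replicate number, and leaving out each library, where the lone library of a group is assumed to vary like the other group. A robust fit and the fits on coding length (loess of span 0.5 per library) were chosen after seeing the data. On simulated data with 13466 genes, 57.5% of 87 genes changed by 0.5 and 73.4% of 109 changed by 1 on the log2 scale were called and 0 had the wrong sign. Calls among unchanged genes numbered 8. Changes smaller than 0.5, such as those of the called members, were not simulated.

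Transcripts of the members were compared with the NCBIM37 genome by megablast (copies of at least 50 bases and 99% identity). Exons of 31 members overlap those of another gene, in 6 over more than 20% of their bases. The members and the 6 lists were chosen with earlier results of these data known. Values are given for all mitochondrial mRNAs, the Sdh genes, the pairs of forms in complex IV, and per group up to 4 called genes of smallest p and those of highest and lowest fold change. Other named members were named after their values were seen. 1 of 102 genes of the lists had no ID. Values are given per library, as each group had 2. The labels do not name separate animals, so p-values measure the spread between these libraries.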

Additional observations from a re-analysis of the deposited data

Results flagged for a closer look

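Of the kinds of read left unassigned, 2 had a higher share in each FeSO4 library than in either Mock library. Reads with more than 1 alignment were 4.42 and 4.27% of reads in Mock and 4.6 and 4.62% in FeSO4, a difference of the group means of 0.264 percentage points. Low-quality alignments were 0.802 and 0.929% in Mock and 0.978 and 0.988% in FeSO4, a difference of 0.118 percentage points. Reads without a feature went the other way and by more, at 5.31 and 6.03% in Mock and 4.36 and 5.21% in FeSO4, a difference of -0.887 percentage points. Members with near-identical copies, such as Atp5g2, Atp5h, Atp5l, Cox5b and 6 of the mitochondrial mRNAs, can lose reads to the kind with more than 1 alignment. The part of these reads in the members' values was not tested.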

How the results depend on the processing

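The 23 members called higher became 22 with DESeq2 size factors, 23 with DESeq2 and 24 with limma-voom, and 8 with library size alone (1 lower), 3 with the coding length trend (1 lower), 6 at an adjusted p under 0.01 and 0 at the threshold of the study (1 lower). Leaving out each library gave 8 to 22. The 21 nuclear subunits called became 6 with library size alone and 1 with the coding length trend, and 3 to 20 without each library. The 2 mitochondrial mRNAs called became 2 to 5. Of genes around the chain, 8 higher became 5 with library size alone and 4 with the coding length trend, and 4 to 8 without each library, while 3 lower became 6 with library size alone. mt-Nd1, mt-Nd2 and Usmg5 were called in all 16 alternative fits at an adjusted p under 0.05, but not at the threshold of the study. Over all genes 1455 were higher and 1221 lower with TMM, against 939 and 1748 with library size alone and 1238 and 1357 with upper quartile scaling.

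The members' median log2 fold change of 0.14 was 0.073 with library size alone, 0.064 with the coding length trend and 0.12 to 0.17 without each library. For mitochondrial mRNAs it was 0.14, against 0.076 with library size alone, 0.059 as the log2 ratio of their share and 0.060 to 0.31 without each library. Some group medians changed sign. Complex II gave -0.031 with library size alone, -0.011 with the coding length trend, and -0.0324 without Mock replicate 2 and -0.0466 without FeSO4 replicate 1. With the coding length trend complex IV gave -0.00801, genes that are not subunits -0.023, assembly factors -0.0384 and mitochondrial DNA genes 0.038. Assembly factors gave -0.00223 with upper quartile scaling, -0.0485 with library size alone and -0.0177 to 0.107 without each library. Enzymes that feed coenzyme Q gave -0.028 with library size alone, -0.00106 with at least 10 counts in every library and -0.0170 without Mock replicate 1, and electron carriers -0.026 without Mock replicate 2. Mitochondrial DNA genes gave 0.0014 without a filter and -0.0326 to 0.0839 without each library, with a negative value without FeSO4 replicate 1 alone. The cause was not tested.

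Replicate numbers were shared between groups. The study's methods speak of pairs from independent experiments, but neither they nor the labels say that a number marks a pair, and differences between replicates correlated across genes at 0.0293 between groups. With the replicate block 30 members were higher and 0 lower, among them 4 nuclear subunits of complex III against 1 without it, and over all genes 1743 and 1467. With 2 libraries per group, members of few counts (mt-Atp8, mt-Nd3, Cox6b2) carry standard errors above most fold changes seen.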
